A study of Rattus norvegicus with 12 samples.

Results

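The mitochondrially encoded transcripts of the rat liver atlas were taken as all features whose symbol starts with Mt- or AY172581. in the gene list of the libraries of nuclei. This rule gave 37 of the 32883 features, of which 13 carry Mt- symbols and 24 carry AY172581 symbols. Together they are called the module, and each of the 37 is called a member. A member is described by name where it held at least 0.1% of the module's unique molecular identifiers (UMIs, one per captured RNA molecule) in any library. That limit left 16 members, the 13 Mt- genes with AY172581.9, AY172581.24 and AY172581.17. The other 21 members, all with AY172581 symbols, held 7358 UMIs over all libraries against 91979104 for the 16, and none of them passed 0.0366% of the module in any library.

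Mammalian mitochondria keep a small circular genome that is read on both strands as long precursors, which are then cut into messenger, ribosomal and transfer RNAs. Its messenger RNAs all encode subunits of the respiratory chain and the ATP synthase, in which they work beside many subunits encoded in the nucleus. Hepatocytes, which make the plasma proteins and run much of the intermediary metabolism of the body, are rich in mitochondria. In single-cell work a high share of these transcripts is commonly used to discard barcodes, and their presence among nuclei reads RNA from outside the nucleus. The Mt- symbols are the protein-coding genes. The number of AY172581 features, 24, equals that of the ribosomal and transfer RNA genes of such a genome combined, but the files pair no AY172581 symbol with a product, and none is assigned here.

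Healthy male rats of the inbred strains Dark Agouti (DA) and Lewis (LEW) were compared. The labels state no treatment, and the names of the DA and LEW files carry the word SHAM. Total liver homogenates (TLH, all cells released by collagenase) of 2 DA and 2 LEW livers were run with 10x 3′ version 2 chemistry, and nuclei of 2 DA and 2 LEW livers with version 3. Immune-enriched cells came from 1 DA and 1 LEW rat with version 3, after a slow spin to take out parenchymal cells, extra washes and depletion of red blood cells, and 2 sections of healthy male Wistar liver were run on Visium, in which a barcoded spot collects RNA from a small area of tissue. Libraries are named by strain and replicate number (DA-1, LEW-2) or as section A and section B. Sources differ on age: the series' design text gives 8 to 10 weeks for the TLH rats of both strains, the file names give 10 weeks for DA and 13 weeks for LEW TLH and 9 weeks for both immune-enriched libraries, and the study's methods give 1 older range for age-matched rats. Whether age differed between the strains is not settled by these sources, and if it did, age and strain cannot be told apart. The labels say that replicates are separate samples, and p-values cover the spread between these few livers only.

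TLH libraries held 61441846 to 92484173 UMIs in 50778 to 62362 barcodes, nuclei 8039397 to 15186970 UMIs in 4458 to 10552 barcodes, the immune-enriched libraries 48255870 (DA) and 60005133 (LEW) UMIs, and the sections 34449562 and 34827603 UMIs in 2437 and 2404 spots. Barcodes were kept at 1 limit per platform on UMIs and on the share of Mt- UMIs (at least 1500 UMIs and at most 40% for TLH, 1000 and 10% for nuclei, 1000 and 50% for immune-enriched cells). The share was therefore capped within each platform before any class was compared. DA-2 TLH stood apart, with 39799 barcodes kept against 6645, 12124 and 7857 in DA-1, LEW-1 and LEW-2 TLH. In DA-2 the fullest range was 1500 to 2000 UMIs (29646 barcodes), which the limit kept. In DA-1, LEW-1 and LEW-2 it was 1000 to 1500 UMIs (35627, 46738 and 41160 barcodes), which the limit left out. At the study's limits 7112 DA-2 barcodes were kept. How many kept barcodes hold free RNA and no cell was not tested, and all are called cells below. Cells were clustered without the members, and clusters were named "-like" after marker genes. Of the 66425 kept TLH cells, 42186 in 8 clusters were hepatocyte-like, and 12386 in 11 clusters took no name. In 4 of those 8 clusters the name rested on a second comparison of 100 leading genes against the other named classes. Pairs of libraries of nuclei shared 8 to 24 barcodes, and the sections shared 1793, on slides whose spots carry a fixed set of barcodes.

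The module took a different share of the RNA on each platform. Over all barcodes it held 6.33% of UMIs in DA-1 TLH, 7.72% in DA-2, 6.29% in LEW-1 and 5.97% in LEW-2. In nuclei the shares were 4.31%, 5.11%, 4.39% and 3.74% in the same order. The sections held 3.59% and 2.88%. The immune-enriched libraries stood far above all others, at 81.7% for DA (exact 95% binomial interval 81.699% to 81.721%) and 45.9% for LEW (45.843% to 45.868%), where the intervals cover counting error only. After the filter the shares were 7.80%, 8.17%, 9.30% and 7.48% in TLH, 3.93%, 4.49%, 4.13% and 3.42% in nuclei, and 27.8% and 27.6% in DA and LEW immune-enriched cells. The sums of the 2 immune-enriched libraries were far apart before the filter, which caps the measure itself, and close after it. The kept cells were not alike, since their median share was 20.7% in DA and 15.9% in LEW, and 159 of 1163 DA cells against 1318 of 2677 LEW cells were hepatocyte-like.

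The balance between Mt- and AY172581 features also went with the platform. In all barcodes, AY172581 features held 1.73% and 1.64% of the module in the DA TLH livers and 0.953% and 0.789% in the LEW livers. They held 11.9% and 18.0% in DA nuclei and 9.90% and 12.8% in LEW nuclei. The sections gave 14.02% and 12.7%, and immune-enriched cells 11.1% (DA) and 8.86% (LEW). TLH cells were the low platform in every library, and nuclei and tissue spots were several times higher. Nearly all of these UMIs belonged to AY172581.24 and AY172581.9, since AY172581.17 was at 0 UMIs in all 4 TLH libraries and reached its highest level in the sections, at 0.0811% and 0.127% of the module. Section B alone took AY172581.17 past the 0.1% limit for naming, so the choice of this member already placed its highest level there.

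Among the protein-coding members, Mt-co1, Mt-co2 and Mt-co3 encode the catalytic core of cytochrome c oxidase (complex IV). These UMIs are 3′-end counts with no length term, so each member is compared across libraries and not with the others. Mt-co1 held 19.8% to 21.8% of the module in kept TLH cells, 25.9% to 34.3% in nuclei, 13.7% and 18.3% in DA and LEW immune-enriched cells, and 22.6% and 21.7% in sections A and B. Mt-co2 was lowest in the sections, at 9.46% and 9.26%, against 13.9% to 15.3% in TLH cells and 14.7% to 22.0% in nuclei. Mt-co3 varied little, between 10.0% in LEW immune-enriched cells and 17.1% in section B. Mt-atp6, which encodes the proton channel subunit of the ATP synthase, varied most among the abundant members. It stood at 19.5% to 20.6% in TLH cells, 12.4% and 15.8% in immune-enriched cells, 13.8% and 14.8% in the sections, and 2.66% to 4.14% in nuclei. Mt-cyb (cytochrome b, complex III) held 5.999% to 10.5% in every library. Of the complex I subunits, Mt-nd1 held 8.70% to 9.68% in TLH cells against 3.71% to 4.801% in nuclei, and Mt-nd2 and Mt-nd4 were highest in immune-enriched cells, at 5.78% and 6.86% for Mt-nd2 and 6.40% and 7.64% for Mt-nd4. Mt-atp8, Mt-nd4l, Mt-nd5 and Mt-nd6 each held 0.573% or less in the kept barcodes of every library. Mt-atp8 overlaps Mt-atp6, and Mt-nd4l overlaps Mt-nd4, so the split of UMIs within these pairs is uncertain.

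**Figure D1:**
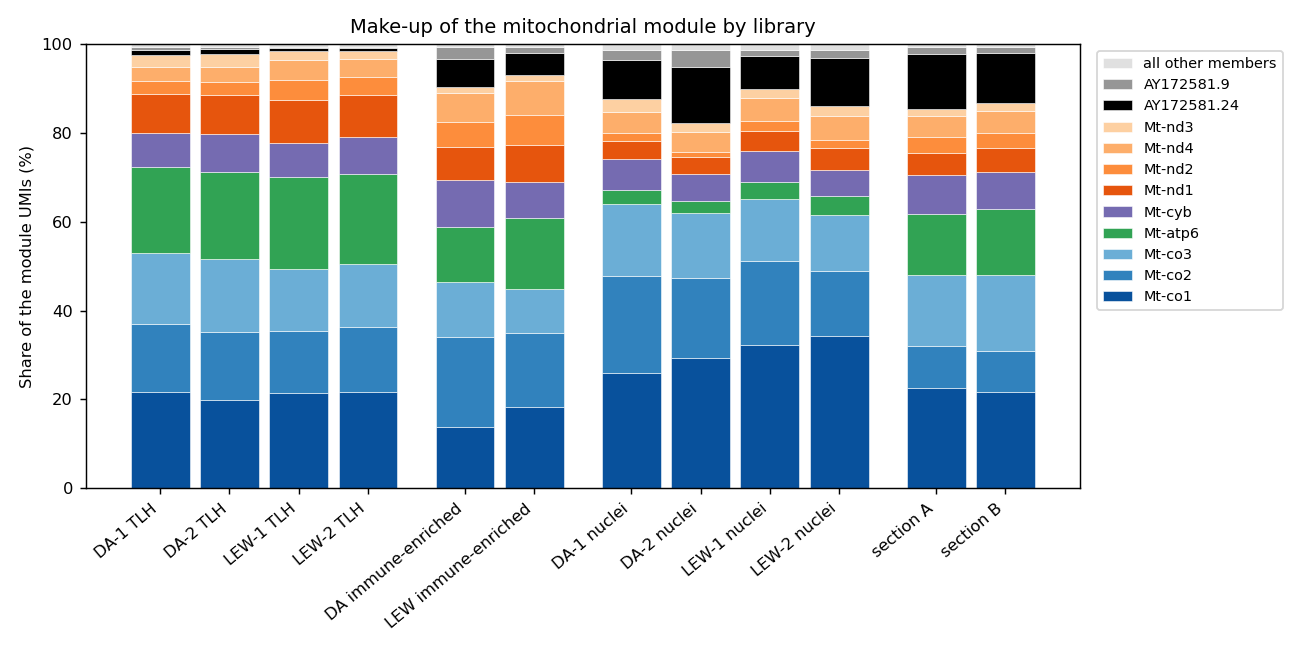
Make-up of the module in each library: the stacked bars show the share of the module's UMIs (%) held by each abundant member, in kept cells and nuclei and in all spots. Mt-atp6 narrows from 19.5% to 20.6% in TLH cells to 2.66% to 4.14% in nuclei, and AY172581.24 widens from 0.611% to 1.21% in TLH cells to 7.40% to 12.6% in nuclei and 12.2% and 11.2% in the sections.

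Among TLH cells the module was largest in hepatocyte-like cells. It held 9.89%, 10.0%, 11.2% and 9.15% of their UMIs in DA-1, DA-2, LEW-1 and LEW-2. Mesenchymal-like cells followed, at 5.26%, 6.92%, 5.78% and 5.503%. In endothelial-like cells the shares were 4.64%, 5.47%, 4.41% and 4.45%. Every hepatocyte-like value lay above every value of the other named classes at these limits. The distance depended on the limits, since with at most 20% the hepatocyte-like shares were 7.32%, 5.82%, 6.48% and 5.93%, and DA-2 was then below the 17 erythroid-like cells of that library (6.30%). At the study's limits hepatocyte-like DA-2, at 7.46%, was below 8 erythroid-like cells at 7.75%. Marco/Cd5l macrophage-like cells, the liver-resident macrophages by their markers, held 4.50%, 5.51%, 4.68% and 4.72%, lymphocyte-like cells 3.69% to 5.64% and Lyz2/Cd74 myeloid-like cells 4.03% to 5.26%. The ranges of the last 4 classes overlapped, and DA-2 was the highest library in each of these 5 classes. An endothelial-like cluster of 1323 cells held 3 mesenchymal beside 4 endothelial markers among its leading genes, so that these classes were not fully apart. Medians over cells differed less: 4.66%, 4.97%, 6.24% and 4.50% for hepatocyte-like cells against 3.55%, 4.24%, 3.21% and 3.50% for endothelial-like cells, so that the summed share was carried by a part of the hepatocyte-like cells.

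In nuclei the order was not the same. Mesenchymal-like nuclei held 5.92%, 5.43%, 5.82% and 4.68% of UMIs in the module, and endothelial-like nuclei 5.23%, 4.81%, 4.81% and 3.71%. Hepatocyte-like nuclei held 3.99%, 4.78%, 4.12% and 3.63%. They were below the mesenchymal-like nuclei of the same library in all 4 libraries. In immune-enriched cells, from which parenchymal and red blood cells had been depleted and where 1 rat stands for each strain and no test is possible, the order again began with hepatocyte-like cells at 36.5% (DA) and 31.4% (LEW). Endothelial-like cells held 27.6% and 16.01%, lymphocyte-like cells 21.6% and 14.2%, macrophage-like cells 20.1% and 12.0%, and erythroid-like cells 8.40% and 3.31%. The DA library was above the LEW library in every named class, but the cells of a class lay partly in different clusters. Endothelial-like cluster 17, with a median share of 38.1%, held 70 DA and 14 LEW cells, endothelial-like cluster 12 held 4 and 104, and hepatocyte-like cluster 1 held 3 and 380. Within single clusters that both libraries filled, the shares were 24.1% (DA) and 14.2% (LEW) in endothelial-like cluster 4, and 39.3% and 33.0% in hepatocyte-like cluster 2.

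**Figure D2:**
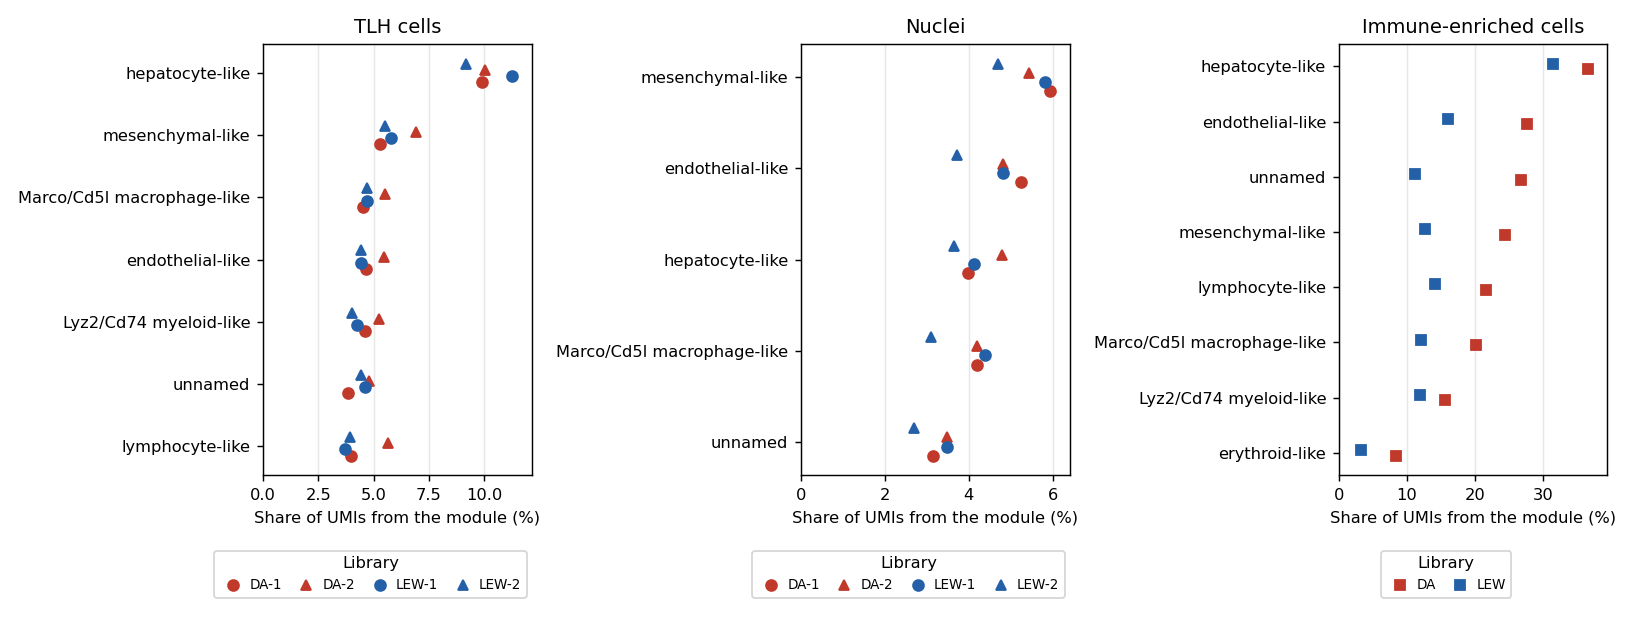
Share of UMIs from the module (%) by cell class in TLH cells, nuclei and immune-enriched cells: each point is 1 library, coloured by strain, for classes with at least 20 cells in every library of the platform, and the 3 panels have axes of their own. Hepatocyte-like TLH cells sit at 9.15% to 11.2%, right of all other classes, whereas hepatocyte-like nuclei, at 3.63% to 4.78%, sit among the other classes.

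The question of which members differed between classes was put to summed UMIs of the 4 TLH livers with edgeR's quasi-likelihood test, with the liver as a block and Benjamini-Hochberg adjustment over all genes. Against endothelial-like cells, 15 of 17 tested members were higher in hepatocyte-like cells and 0 lower. Of all genes tested, 40.2% were called, 19.5% as higher and 20.7% as lower. The members' median log2 fold change was 1.31, against 0.02 over all genes. Mt-co1 differed most, with an average of 22433 CPM (UMIs scaled to a common library total) in hepatocyte-like and 8314 in endothelial-like cells (log2 fold change 1.72, SE 0.10, edgeR adjusted p = 2.6e-09). Fold changes, here and below, come from the edgeR fit after its TMM scaling, whereas the CPM shown carry no such scaling. Between classes the fold changes lie above the log2 ratios of the CPM shown. The smallest called difference was that of Mt-atp8, at 1.13 (SE 0.10, adjusted p = 1.1e-09). AY172581.9 and AY172581.24 were higher as well, by 1.58 (SE 0.13) and 1.52 (SE 0.09), although their CPM overlapped between the classes when the strains were not separated. AY172581.3 and AY172581.23, both below 3 CPM, were not called.

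The comparison with Marco/Cd5l macrophage-like cells gave 15 members higher and 1 lower of 17. Of all genes tested, 50.1% were called, 25.7% as higher and 24.5% as lower, and the median was 1.39 for the members and 0.04 for all genes. Mt-co1 was again the member that differed most (log2 fold change 1.76, SE 0.12), and Mt-co2 differed least among those higher, with 14355 CPM against 9255 (0.98, SE 0.11, edgeR adjusted p = 4.0e-08). AY172581.23 was lower, by a log2 fold change of -0.99 (SE 0.33, adjusted p = 0.0134), on 2.36 against 5.17 CPM. When library sizes were set to the sum of the members, so that each is read relative to the module, 2 and 4 members were called beside 95.4% and 89.4% of all genes, and the median of all genes moved to -1.34 in both comparisons. Mt-co1 was then still higher against both classes (0.35 and 0.36), while Mt-co2 was lower against macrophage-like cells (-0.42).

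The hepatocyte-like cells were not uniform. The median share per cell lay between 21.8% and 27.8% over the 4 livers in cluster 3 (4903 cells led by Sds, Serpina4 and Itih4) and between 19.6% and 28.2% in cluster 6 (3247 cells led by Gulo, Scd and Cyp7a1, the rate-limiting enzyme of bile acid synthesis). Cluster 8 stood at 13.6% to 19.7% and cluster 10 at 8.60% to 14.6%, both with Pigr and F9 among their leading genes. The other 4 clusters were low, at 4.35% to 6.45% (cluster 1), 3.44% to 4.27% (cluster 0), 2.46% to 3.57% (cluster 5) and 2.18% to 3.06% (cluster 7). High and low clusters occurred in every liver. The clustering followed a Harmony correction, which draws the libraries together and so favours clusters that all livers share. TLH barcodes of 1000 to 1500 UMIs, all left out, had medians of 3.96% (DA-1), 4.18% (DA-2), 3.30% (LEW-1) and 4.15% (LEW-2). The part of free RNA in the low clusters was not tested. Cluster 0, the largest with 14704 cells, was led by nuclear genes that include Cox7b, Ndufv3 and Uqcr10, all subunits of the respiratory chain. A high share was not found in hepatocyte-like cells alone, since an endothelial-like cluster of 246 cells had a median of 22.0% and a mesenchymal-like cluster of 192 cells one of 23.7%. The livers weighed these clusters differently. Clusters 0 and 1 held 21.8% of the hepatocyte-like cells of DA-1 and 64.4% of those of DA-2, and 42.6% and 45.2% in LEW-1 and LEW-2.

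The make-up changed between high and low clusters. Mt-co1 held 17.2% to 27.9% of the module in clusters 3, 6, 8 and 10, whose 4 library medians had a median of at least 10%, and 13.8% to 17.5% in the other 4, over 16 values of 4 livers each. Mt-co2 held 12.4% to 16.5% and 13.3% to 18.0%. Several members were apart by strain in the low clusters. Mt-atp6 held 17.8% to 19.2% in DA and 21.9% to 25.5% in LEW there and overlapped in the high ones, as did Mt-nd1, with 9.04% to 9.40% against 11.4% to 11.9%. Mt-co1 (15.8% to 17.5% against 13.8% to 14.9%) and Mt-co3 (17.7% to 18.7% against 13.1% to 14.1%) were apart the other way in the low clusters and overlapped in the high ones. Mt-nd2, Mt-nd3, Mt-nd4, AY172581.9 and AY172581.24 were apart in the low and in the high clusters, and Mt-nd4 held 2.87% to 3.26% in DA against 3.55% to 4.35% in LEW low clusters. Mt-nd6 overlapped in the low clusters and was apart in the high ones, at 0.0633% to 0.129% in DA against 0.0332% to 0.0592% in LEW. The members did not take part in the clustering, but the cells of a cluster share their livers and depth, and these values are given as a description.

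Between strains, the share of the module did not separate the livers. In TLH cells it was 7.99% ± 0.26 (SD, n = 2) for DA and 8.39% ± 1.28 (n = 2) for LEW, a difference of -0.405 percentage points (exact permutation test, two-sided, p = 1.0). The sign was not stable, with 0.190 at a limit of 20%, 1.76 at 2000 UMIs and 0.503 without LEW-1. In nuclei it was 4.21% ± 0.40 for DA and 3.77% ± 0.50 for LEW (difference 0.433, exact p = 0.667). With 2 livers against 2 the exact test cannot go below 0.333.

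Of single members, 2 were called in hepatocyte-like TLH cells and 0 over all kept TLH cells. The strain difference of AY172581.9 was a question set beforehand. In hepatocyte-like TLH cells AY172581.9 had 519 and 483 CPM in DA-1 and DA-2, and 260.0 and 198 CPM in LEW-1 and LEW-2. The strains did not overlap, and the log2 fold change (DA minus LEW) was 1.12 (SE 0.17, edgeR adjusted p = 0.0093). Mt-nd6, the complex I subunit encoded on the strand opposite to the other messenger RNAs, was the other member called, at 99.0 and 81.3 CPM in DA against 52.7 and 44.4 CPM in LEW (0.88, SE 0.15, adjusted p = 0.0150). These were 2 of 19 members tested, where 4.63% of all genes were called, 2.42% as higher and 2.2% as lower in DA. With library sizes set to the member sum AY172581.24 was called as well, which made 3 members beside 6.22% of all genes in hepatocyte-like cells, and the same 3 beside 3.09% over all TLH cells. Both calls were lost without LEW-1 (1.34 with edgeR adjusted p = 0.0562, and 1.02 with 0.0823) and without LEW-2 (0.94 with 0.129, and 0.76 with 0.142), while the directions held. These fits have 1 LEW liver, which is assumed to vary like the 2 DA livers. The Mt-nd6 call was also lost at the study's limits (0.69, adjusted p = 0.172) and with at most 20% (0.81, adjusted p = 0.129). With at least 2000 UMIs per cell, the differences were larger and not called (1.61 with adjusted p = 0.0679, and 1.30 with 0.150).

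AY172581.24 had 1209.6 and 1164 CPM in DA and 854 and 580.0 CPM in LEW hepatocyte-like cells, a difference of 0.72 (SE 0.20) that did not pass (edgeR adjusted p = 0.0841), although the livers did not overlap. Of the complex I genes, Mt-nd2 had 2808 and 3049 CPM in DA against 4864 and 3509 CPM in LEW (-0.51, SE 0.20, adjusted p = 0.183), and Mt-nd4 had 3339 and 3412 CPM against 5086 and 4015 CPM (-0.43, SE 0.17, adjusted p = 0.202). Mt-nd3 lay the other way, at 2589 and 2758 CPM against 2328 and 1611 CPM (0.44, SE 0.20, adjusted p = 0.256). None of these 3 passed. The remaining Mt- genes had absolute log2 fold changes of 0.29 or less. Over all kept TLH cells edgeR called 0 of 19 members, against 1.83% of all genes. At an unadjusted p under 0.05 there were 4 (AY172581.9, Mt-nd6, AY172581.24 and AY172581.3). The 1.83% is for the adjusted p, and the share of all genes at an unadjusted p is not given, here or below. DESeq2 called 2, AY172581.9 and Mt-nd6, beside 477 of all genes, and the edgeR adjusted p was 0.0582 for both members.

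**Figure D3:**
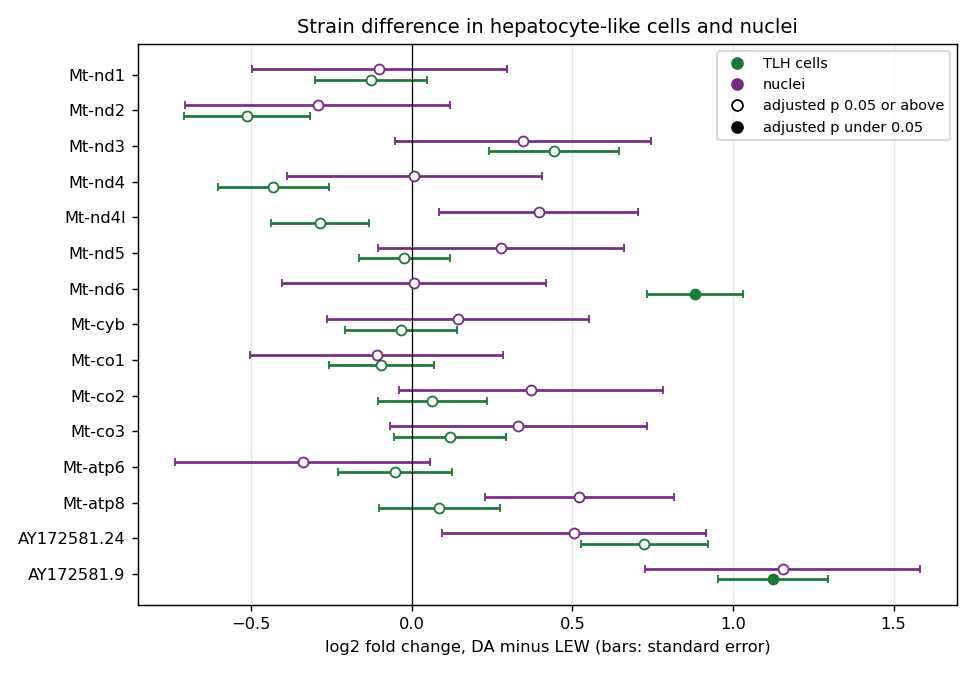
Strain difference of the named members in hepatocyte-like TLH cells and nuclei: points are log2 fold changes (DA minus LEW) with their standard errors as bars, and filled points passed an adjusted p of 0.05. AY172581.9 lies near 1.12 in cells and 1.15 in nuclei, whereas Mt-nd6 lies at 0.88 in cells and 0.01 in nuclei, with wider bars in nuclei.

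Read within the module, AY172581.9 showed one pattern in 3 classes. It held 0.525% and 0.481% of the module in DA and 0.231% and 0.217% in LEW hepatocyte-like cells. In endothelial-like cells these shares were 0.451% and 0.470% against 0.189% and 0.158%. In macrophage-like cells they were 0.543% and 0.473% against 0.170% and 0.128%. The strains were apart in all 3 classes, which come from the same 4 libraries and are not separate observations. The study describes free hepatocyte RNA in TLH, and its part in the values of the other classes was not tested. They were also apart over the 8 hepatocyte-like clusters, where AY172581.9 ranged from 0.387% to 0.578% of the module in DA livers and from 0.113% to 0.281% in LEW livers. AY172581.24 was apart by a narrow margin, with 0.933% to 1.30% in DA and 0.528% to 0.920% in LEW. Mt-nd6 overlapped, with 0.0557% to 0.129% and 0.0268% to 0.0604%.

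The strain difference was then compared between classes, whose make-up was not the same in every liver. Endothelial-like cluster 14, with its mesenchymal markers, held 1058 cells in DA-2 and 36, 165 and 64 in DA-1, LEW-1 and LEW-2, and macrophage-like cluster 19 held 59 and 130 cells in DA and 189 and 164 in LEW beside 377, 1114, 342 and 345 in cluster 9. Within cluster 4, the main endothelial-like cluster, AY172581.9 held 0.432% and 0.451% of the module in DA and 0.174% and 0.160% in LEW, and within cluster 9 it held 0.550% and 0.480% against 0.166% and 0.135%. The part of these clusters in the differences between classes was not tested. For AY172581.9 it was smaller in hepatocyte-like than in endothelial-like cells by 0.62 on the log2 scale (interaction -0.62, SE 0.14, edgeR adjusted p = 0.0026), on 209 and 257 CPM in DA and 83.1 and 70.1 CPM in LEW endothelial-like cells. Against macrophage-like cells the interaction was -0.75 (SE 0.18, adjusted p = 0.0283), on 244 and 261 CPM in DA and 79.6 and 60.6 CPM in LEW. It was the single member of 18 called in the latter comparison, where 1.14% of all genes were called. In the comparison with endothelial-like cells 6 of 18 members were called, against 2.58% of all genes. These were AY172581.9, Mt-co1 (-0.51, SE 0.10), Mt-co3 (-0.50, SE 0.10), AY172581.24 (-0.41, SE 0.12), Mt-nd3 (-0.37, SE 0.11) and Mt-cyb (-0.36, SE 0.10), all in the same direction. The members not called were negative as well, from -0.09 (Mt-nd1) to -2.99 (AY172581.15, SE 1.34). The direction was thus shared by all 18, and a shift of the module was not separated from changes of single members. For Mt-co1, endothelial-like cells had 8752 and 9626 CPM in DA against 7445 and 7434 CPM in LEW, while the hepatocyte-like livers overlapped, at 22513 and 20926 CPM against 25045 and 21250 CPM.

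In nuclei the same direction was seen with a wider spread. AY172581.9 had 889 and 1846 CPM in DA and 559.9 and 654.5 CPM in LEW hepatocyte-like nuclei. The strains did not overlap, but the DA libraries lay far apart, and the difference of 1.15 (SE 0.43) was not called (edgeR adjusted p = 0.306). It was 0.62 without DA-2 and 1.52 without DA-1. As a share of the module it was 2.23% and 3.86% in DA against 1.36% and 1.80% in LEW. Of 16 members tested in hepatocyte-like nuclei 0 were called by edgeR and 0 by DESeq2, 1 had an unadjusted p under 0.05 (AY172581.9), and 1.82% of all genes were called. Over all nuclei the counts were 0 of 17 by both tools, 2 at an unadjusted p under 0.05 (AY172581.9 at 1.03 and AY172581.17 at -1.39), and 1.46% of all genes. Mt-nd6 was not called in nuclei, at 204 CPM on average in DA and 198 in LEW (0.01, SE 0.41), and its difference was 0.58 without LEW-1 and -0.40 without LEW-2. The strain difference was then compared between hepatocyte-like cells and nuclei in one edgeR fit, where 0 of 19 members and 0% of all genes were called, with 1 member (Mt-nd4l) at an unadjusted p under 0.05. For AY172581.9 the difference between platforms was -0.07 (SE 0.48), a standard error too wide to read a change in either direction. In immune-enriched hepatocyte-like cells, with 1 rat of each strain, AY172581.9 held 1.81% (DA) and 1.24% (LEW) of the module.

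The nuclear partners of the module were counted from fixed lists. In hepatocyte-like TLH cells, 1 of 37 nuclear subunits of complex I was lower in DA (Ndufa8, -0.63, SE 0.14, edgeR adjusted p = 0.0449) and 0 were higher. In the lists of complexes II (4 genes), III (10), IV (10) and V (13), edgeR called 0 genes, with 0, 1, 0 and 1 at an unadjusted p under 0.05. Of 28 genes of mitochondrial transcription and RNA handling 0 were called and 4 had an unadjusted p under 0.05. Of this list Tfam, which packs the mitochondrial genome and helps to start its transcription, was at 0.33 (SE 0.14, adjusted p = 0.207), the polymerase Polrmt at -0.07 (SE 0.19) and Lrpprc, which stabilises mitochondrial messenger RNA, at -0.46 (SE 0.15, adjusted p = 0.123). Of 75 mitochondrial ribosomal proteins 3 were lower in DA and 0 higher, where 2.2% of all genes were lower. Mrps10, a protein of the small subunit, had 4 and 11 UMIs in DA against 184 and 133 UMIs in LEW (-5.27, SE 0.34, adjusted p = 0.0002). Mrpl45 (-1.06, SE 0.20) and Mrps5 (-0.78, SE 0.13) were the others. In hepatocyte-like nuclei Mrps10 was again lower in DA, at 0 and 3 UMIs against 46 and 24 UMIs (adjusted p = 0.0151), and was the single call of 74 ribosomal proteins, where 0.779% of all genes were lower. The medians of these 7 lists lay between -0.18 and 0.01 in hepatocyte-like TLH cells, where that of all genes was -0.0007. In hepatocyte-like nuclei they lay between -0.34 (complex IV) and -0.12 (transcription and RNA handling), with -0.27 for complex I and -0.02 for all genes, and over all nuclei between -0.46 and -0.15, with -0.03 for all genes. Of the haemoglobin list, which marks red blood cells, 2 genes were tested in hepatocyte-like cells and 0 were called by edgeR, with 0 at an unadjusted p under 0.05.

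Between classes the same nuclear lists had smaller medians than the module. Against macrophage-like cells, 13 of 37 complex I genes were higher in hepatocyte-like cells, led by Ndufv3 (0.83), Ndufa6 (0.47) and Ndufc1 (0.45), and 2 were lower, Ndufa13 (-0.59) and Ndufa9 (-0.27). Of complexes II to V, 2 of 4, 3 of 10, 2 of 10 and 4 of 13 genes were higher and 0 lower. Of 27 genes of mitochondrial transcription and RNA handling 9 were higher, led by Twnk (the replicative helicase, 0.85), Polg2 (0.82) and Polg (0.73), both subunits of the mitochondrial DNA polymerase. Of 74 mitochondrial ribosomal proteins 14 were higher, led by Mrpl14 (0.54), Mrps18b (0.52) and Mrpl37 (0.49), and 2 lower, Mrps6 (-0.63) and Mrpl42 (-0.25). Both haemoglobin genes tested were lower. The medians of the 7 mitochondrial lists lay between 0.08 and 0.21, against 1.39 for the members. Of all genes 25.7% were higher and 24.5% lower, and the counts are read against those shares. No difference of a list's share from that of all genes was tested.

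Against endothelial-like cells, 0 of 37 complex I genes were higher and 4 lower, led by Ndufa12 (-0.26), Ndufc2 (-0.26) and Ndufb10 (-0.23). Of complexes II to V, 1 of 4, 2 of 10, 1 of 10 and 1 of 13 genes were higher and 0 lower. Of 27 genes of mitochondrial transcription and RNA handling 4 were higher, namely Elac2 (0.38), which cuts transfer RNAs from their precursors, Polg2 (0.35), Twnk (0.32) and Lrpprc (0.25). Of 75 mitochondrial ribosomal proteins 1 was higher (Mrpl14, 0.27) and 5 lower, led by Mrpl39 (-0.51), Mrpl47 (-0.49) and Mrpl41 (-0.30). Of the 2 haemoglobin genes 0 were called by edgeR, with 0 at an unadjusted p under 0.05. The medians lay between -0.04 and 0.19, against 1.31 for the members. Of all genes 19.5% were higher and 20.7% lower, and no difference of a list's share from these was tested.

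Hepatocyte-like TLH cells, called cells in this comparison, and nuclei were compared as 1 class by name on different platforms. Of the 24 hepatocyte-like clusters of nuclei, 13 were named only by the second comparison, and 1747 nuclei took no name, among them clusters led by genes such as Cyp7a1, Cyp2c7 and Glul, which hepatocytes also express, so that the class may leave out some hepatocyte nuclei. Preparation, chemistry, sequencer and the limit on the Mt- share differ between them and cannot be told apart, and the animal numbers carried by the library names recur between TLH and nuclei although the study describes further rats. The module held 10.1% ± 0.87 (SD, n = 4) of UMIs in cells and 4.13% ± 0.48 (n = 4) in nuclei, a difference of 5.95 percentage points (exact permutation test, two-sided, p = 0.0286, the smallest that 4 against 4 can give). The limits cap this measure, and with at most 20% in cells and 5% in nuclei the difference was 2.83 (exact permutation p = 0.0286). The AY172581 share of the module went the other way, at 1.31% ± 0.45 in cells and 13.3% ± 3.86 in nuclei (exact permutation p = 0.0286). Neither measure overlapped between TLH cells and nuclei. Immune-enriched cells, run like the nuclei with version 3 chemistry, were not part of this comparison. Over their kept cells of all classes the AY172581 share was 8.99% (DA) and 6.24% (LEW), so the contrast is that of TLH cells and not of whole cells in general.

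The make-up differed member by member. Each named member's share of the module was compared, and 12 of 16 passed with an adjusted p of 0.0381, each at the smallest p that the exact permutation test allows (0.0286). Only members have such a share, so there is no background of other genes for this count. The shares of a library sum to a fixed whole, so a fall in 1 member raises the others, and the 12 calls are not independent. The members with the largest ratios were Mt-atp6, AY172581.24, AY172581.9 and Mt-nd6. Mt-atp6 held 20.1% in cells (19.8% to 20.5%) and 3.32% in nuclei (2.56% to 3.92%), a ratio of 6.04. AY172581.24 held 0.944% in cells (0.634% to 1.22%) and 10.9% in nuclei (7.62% to 14.3%), 11.6-fold more in nuclei. AY172581.9 held 0.363% (0.217% to 0.525%) and 2.31% (1.36% to 3.86%), 6.37-fold more in nuclei. Mt-nd6 held 0.0691% (0.0469% to 0.100%) and 0.486% (0.410% to 0.5999%), 7.03-fold more in nuclei. Mt-nd1, Mt-nd2 and Mt-cyb were also higher in cells, at 9.02% against 4.35%, 3.51% against 1.81% and 7.88% against 6.79%. Mt-co1 (22.3% against 30.003%), Mt-nd4l, Mt-atp8 and Mt-nd5 held a higher share of the module in nuclei, as did AY172581.17, at 0 UMIs in cells and 37 UMIs in nuclei. Mt-co2, Mt-co3, Mt-nd3 and Mt-nd4 overlapped and did not pass.

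Set against the whole transcriptome in CPM, the libraries of cells lay above those of nuclei in 11 of 15 members with at least 10 CPM, where 16.9% of all 7212 genes did so. The 3 members that lay below were AY172581.9, AY172581.24 and Mt-nd6, where 52.8% of all genes did. Mt-atp6 averaged 20233 CPM in cells and 1352 CPM in nuclei, a ratio of 14.97, against 5.11 for Mt-nd1 and 1.82 for Mt-co1. Mt-atp8 (1.75) and Mt-nd5 (2.10) were also higher in cells in CPM. Like Mt-co1, both had held a higher share of the module in nuclei. Mt-nd4l overlapped in CPM. AY172581.24 averaged 952 CPM in cells and 4564 CPM in nuclei, 4.79-fold more in nuclei.

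**Figure D4:**
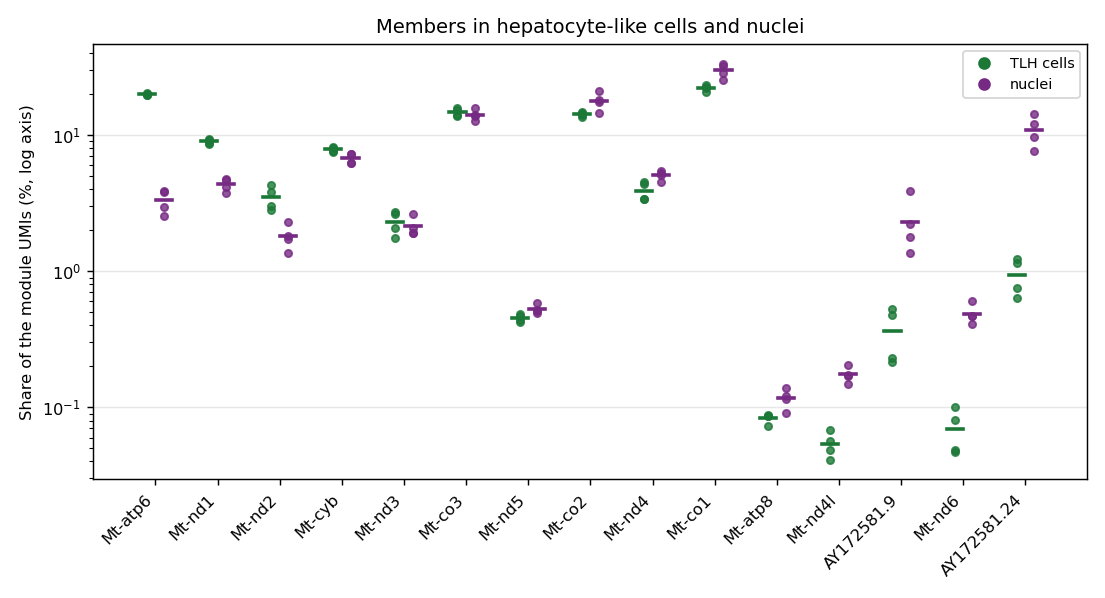
Share of the module (%, log axis) held by 15 named members in hepatocyte-like TLH cells and nuclei: points are libraries (4 of each) and bars their means. AY172581.17, at 0 in cells, is left out. From left to right the members run from Mt-atp6, at 20.1% in cells and 3.32% in nuclei, to AY172581.24, at 0.944% in cells and 10.9% in nuclei.

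The immune-enriched libraries held barcodes made up of little else than the module. Members gave over 90% of UMIs in 2527 of 4690 DA barcodes (53.9%) and in 918 of 6815 LEW barcodes (13.5%), and over 50% of UMIs in 73.4% and 39.8%. No TLH barcode passed 90%. Barcodes of at least 1000 UMIs with 80% or more of them in the module had medians of 15425 UMIs (DA) and 10608 UMIs (LEW). Most of these UMIs are the module's own. In barcodes of at least 1000 UMIs the AY172581 share of the module followed a curve over the module's share in both libraries. In those with less than 5% of UMIs in the module it was 19.1% (DA) and 17.3% (LEW), in those with 20% to 40% it was lowest, at 7.93% and 5.12%, and above 80% it rose again to 11.4% and 10.97%. Among classes it was low in hepatocyte-like cells, at 5.91% and 5.68%, and high in lymphocyte-like cells, at 18.1% and 18.9%. Endothelial-like cells had 13.6% and 13.7%. These 3 classes came in the same order in both rats. Hepatocyte-like cells were also the deepest class, with medians of 37128 and 24176 UMIs against 3733 and 3891 for lymphocyte-like cells, and the part of depth in these shares was not tested.

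In the Wistar sections the module was read per spot, each of which can hold several cells. Spots were ranked by the module's share and split into 5 groups of equal size. From the lowest to the highest group the share went from 2.37% to 7.31% in section A and from 1.85% to 5.88% in section B. The AY172581 share of the module stayed between 4.94% and 9.34% in the first 4 groups of both sections and was 37.4% and 31.8% in the highest. AY172581.24 alone went from 4.11% to 32.5% and from 4.24% to 28.5%. Since AY172581 UMIs enter the share that ranked the spots, the ranking was repeated on the Mt- members alone, a choice made after seeing the data, and the AY172581 share in the highest group was then 34.7% and 30.2%. Ranked by UMIs, it was 36.7% and 34.8% in the group with the fewest UMIs and 5.86% and 6.23% in that with the most. Spots with 10% to 20% of UMIs in the module (104 and 40 spots) had 58.1% and 54.0% of it in AY172581 features. Over the groups ranked by the module's share the spots held less RNA, with median UMIs falling from 17552.5 to 7599.5 in section A and from 16873 to 7423 in section B. The haemoglobin share of UMIs went from 0.101% to 0.427% and from 0.0892% to 0.395% over the same groups. The part of depth and of blood in the make-up was not tested.

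**Figure D5:**
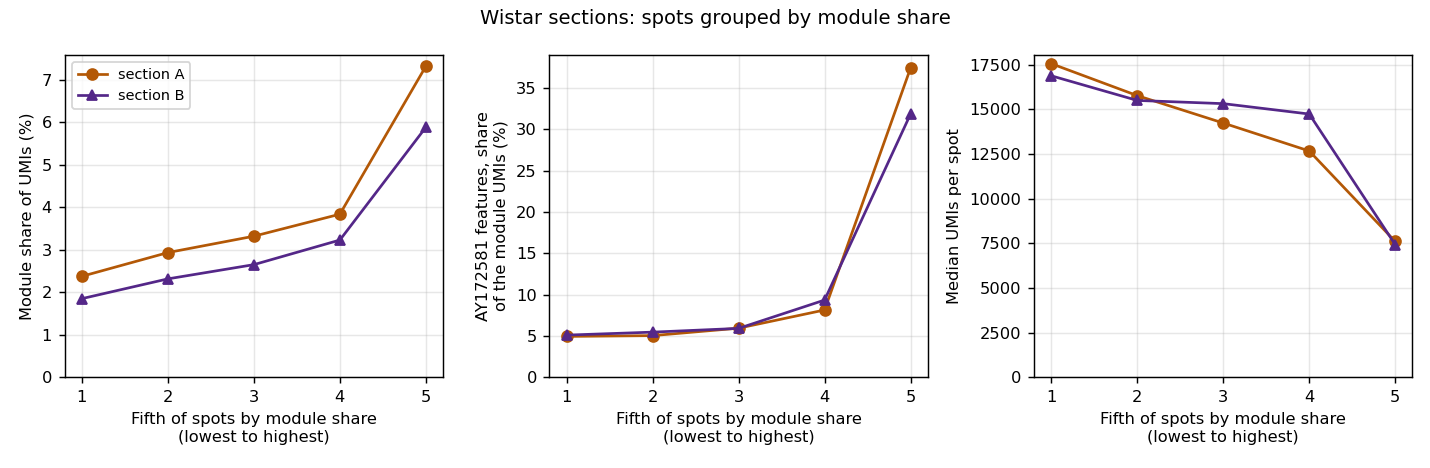
Wistar sections in 5 groups of spots, from the lowest to the highest share of UMIs in the module: the panels show that share (%), the share of the module held by AY172581 features (%) and the median UMIs per spot. In the highest group the AY172581 share reaches 37.4% and 31.8% while the median UMIs fall to 7599.5 and 7423.

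Correlations over the 2437 and 2404 spots are given as descriptions, since spots share a section and the share and the depth share a denominator. Spearman's rho of the module's share with the UMIs of the spot was -0.518 (section A) and -0.401 (section B), and 0.331 and 0.298 with the haemoglobin share. The AY172581 share of the module followed the module's share, at 0.605 and 0.659. AY172581 UMIs enter both of these shares, and the correlation was not repeated on the Mt- members alone. With a score of periportal over pericentral genes, which places a spot between the portal triad and the central vein, rho was 0.170 (A) and 0.053 (B), and 0.246 and 0.114 for the protein-coding members alone. In spots of at least 5000 UMIs rho was 0.208 and 0.105. Pearson's r on the log2 of the module's share was 0.086 and -0.015, so the sign in section B was not stable. The AY172581 share of the module had a rho of -0.251 (A) and -0.297 (B) with the same score. The share of the nuclear-encoded respiratory chain went with the module's share at 0.079 and 0.063 only.

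Along the same score, Mt-cyb was the member with a steady course. From the pericentral to the periportal end, over 5 groups of spots, it held 7.36%, 7.99%, 8.49%, 9.13% and 10.0% of section A's module UMIs. The course in section B was 6.71%, 7.47%, 8.36%, 9.11% and 10.0%. Mt-co3 was highest at the periportal end, with 15.8%, 14.9%, 14.8%, 16.1% and 18.2% for section A against 16.03%, 15.8%, 16.5%, 17.4% and 19.6% for section B. Mt-nd1 was highest at the pericentral end, with 5.68% (A) and 5.99% (B), and varied between 4.73% and 5.39% in the other groups. The AY172581 share was highest inside the range rather than at an end. It was 12.0%, 15.9%, 17.9%, 14.8% and 9.29% for section A against 14.4%, 15.7%, 14.3%, 11.9% and 7.53% for section B, lowest in the most periportal group of both. Median UMIs per spot over the same groups were 14457, 13081, 13423, 13765 and 14119 in section A. In section B they were 13449, 13003, 13777, 14758 and 15720. The part of depth in this course was not tested. Spot positions were not used here, and the groups rest on gene counts alone.

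The genes outside the module whose CPM went most closely with its share over spots were taken as the first 5 in each section, of which 3 were shared. AABR07000398.1 came first in both, at a rho of 0.540 (section A) and 0.581 (section B). AC134224.3 (0.477 and 0.433) and Pigr, the receptor that carries polymeric immunoglobulins across epithelia (0.4658 and 0.543), took the next places, in the opposite order in section B. Albumin (Alb, 0.347) and hepcidin (Hamp, 0.327) followed in section A, and Tpt1 and the alpha globin Hba-a2 (both 0.290) in section B. The medians over the 4016 and 4156 genes compared were -0.081 and -0.068.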

How the data were processed

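The authors mapped reads with Cell Ranger 3.1.0 (Space Ranger 1.1.0 for the sections) to a custom rat reference and deposited unnormalized counts of UMIs for each gene in each barcode or spot, before their own filters. Rows of the TLH and immune-enriched tables carry no names, so the names of the nuclei's rows were used, in the same order. The members and gene lists were chosen with earlier results of these data known.

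Barcodes were filtered as the report states. The study's own limits differ by library and act on the module's share. They were run as an alternative, with 2000 UMIs for the LEW TLH livers where the methods state 1500. Kept barcodes were corrected for library with a Harmony step and clustered without the members (15 components, 20 neighbours, leidenalg 0.10.2, scikit-learn 1.9.0). Clusters were named from marker lists: 3 markers among 30 leading genes detected in 25% or more of the cells, or else among 100 genes against other named classes. Doublets were not called, and free RNA could not be read.

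UMI sums per library and class were tested with edgeR 4.0.16 in R 4.3.3 (quasi-likelihood, TMM, its default filter, Benjamini-Hochberg over all genes, 0.05), without a replicate block between strains and with the liver as a block between classes, where a liver's sums deviated together (correlations of 0.57 to 0.75). DESeq2 1.42.0 was an alternative. Single values were compared by exact permutation in Python 3.11.15 (scipy 1.17.1). The edgeR steps were tested on simulated data.

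Named members held at least 0.1% of the module in any library. From the nuclear lists, Tfam, Polrmt, Lrpprc and the 3 largest changes each way among genes called were named. From the sections, the 5 genes in at least 20% of spots with the highest rho were named. Binomial intervals are exact, at 95%.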

Additional observations from a re-analysis of the deposited data

Results flagged for a closer look

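In hepatocyte-like TLH cells, Mt-atp8 held 0.0730% of the module in LEW-2 and 0.0859% to 0.0885% in the other 3 livers, a gap past Dixon's limit for 4 values. It was 1 of 35 groups of 4 examined, and chance alone flags about 1 in 20.

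The strain difference (DA minus LEW) differed between hepatocyte-like and endothelial-like cells for AY172581.9 (-0.62), AY172581.24 (-0.41), Mt-co1 (-0.51), Mt-co3 (-0.50), Mt-nd3 (-0.37) and Mt-cyb (-0.36) by an interaction term in edgeR, and between hepatocyte-like and macrophage-like cells for AY172581.9 (-0.75). Both comparisons use the same hepatocyte-like sums. In the comparison with endothelial-like cells all 18 members tested had negative estimates, called or not.

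Over all barcodes, before the filter, 2527 DA and 918 LEW immune-enriched barcodes had over 90% of their UMIs in the module, against 0 in the TLH libraries. Of the kept immune-enriched cells, 2 (DA) and 0 (LEW) were among these, since the limit is set on the Mt- genes alone.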

How the results depend on the processing

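Of 1091 values of single members under the alternatives, 1034 kept their direction and their side of the threshold (a change of sign that passed in neither setting counted as kept), 22 lost it, 19 gained it and 16 reversed. Over all TLH cells the 0 members called between strains became 2 with DESeq2, 5 with no filter on low counts, 3 with library sizes set to the member sum, 1 at the study's limits, 1 at a limit of 20%, 4 with crossed pairs, and 0 to 3 with 1 liver left out (3 without DA-1). In hepatocyte-like TLH cells the 2 called became 4 with no filter, 3 with DESeq2, 3 with the member sum, 3 with crossed pairs, 1 at the study's limits (Mt-nd6 0.69, adjusted p = 0.172), 0 at 2000 UMIs and 0 to 2 with 1 liver left out. At a limit of 20%, Mt-nd6 was lost (0.81, adjusted p = 0.129) and AY172581.24 gained (0.88, adjusted p = 0.0321). AY172581.9 ranged from 0.94 to 1.61. In nuclei the count stayed at 0 under all alternatives run. The limits on the Mt- share act on the measure itself, the crossed pairs and the 2000 UMI minimum were chosen after seeing the data, and the causes were not tested. Calls over all genes moved too, so these rises are not particular to the members. In all TLH cells they went from 214 to 477 (DESeq2), 1035 (no filter), 361 (member sum), 607 (study's limits) and 1631 (crossed pairs). In hepatocyte-like TLH cells they went from 483 to 470, 1138, 649, 420 and 960 in the same order.

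Same-numbered livers correlated at -0.46 in all TLH cells, -0.24 in hepatocyte-like TLH cells, and 0.15 and 0.12 in nuclei, over 2 pairs each, and the labels give no shared batch for a number. With the replicate block the counts of members were 0 and 2 in TLH (AY172581.9 at 1.21 with adjusted p = 0.131 and 1.14 with 0.0279) and 0 and 0 in nuclei.

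Between classes the member sum gave 2 (endothelial-like) and 4 (macrophage-like) members in place of 15 and 16, and the fit without the replicate block 14 and 14. The member sum lowers all genes alike (median over all genes -1.34) and centres the members near 0, so that the following changes of sign, which are all 16 counted as reversed above, come from the scaling itself. With it the sign reversed against endothelial-like cells for Mt-nd1 (-0.12), Mt-nd2 (-0.21), Mt-co2 (-0.19), Mt-atp8 (-0.22), Mt-atp6 (-0.014), Mt-co3 (-0.071), Mt-nd3 (-0.031), Mt-nd5 (-0.24) and Mt-cyb (-0.11), and against macrophage-like cells for Mt-nd1 (-0.013), Mt-nd2 (-0.10), Mt-co2 (-0.42), Mt-atp8 (-0.11), Mt-co3 (-0.13), Mt-nd4l (-0.030) and Mt-cyb (-0.026).

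The strain difference in the module's share of TLH cells turned from -0.405 to 0.190 at a limit of 20%, 1.76 at 2000 UMIs and 0.503 without LEW-1 (-1.31 to 0.503 with 1 liver left out). The difference between hepatocyte-like cells and nuclei was 4.83 at the study's limits and 2.83 at limits of 20% and 5%. It was 6.39 at 2000 UMIs and 6.37 for protein-coding members alone. Over barcodes of all classes, and not the hepatocyte-like alone, it was 4.20 at the main limits and 4.15 with the UMI minimum and no limit on the share. The exact permutation p was 0.0286 for each of these. For hepatocyte-like barcodes with 1 library left out it was 5.56 to 6.26 (exact permutation p = 0.0571, the smallest possible), where that of the AY172581 share was -13.4 to -10.3. Pearson's r of the log2 of the module's share with the periportal score was 0.086 (A) and -0.015 (B).

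Counts over all genes differed by over 1.5 times as follows. All TLH cells gave 214, and 477 with DESeq2, 1035 with no filter, 141 with the replicate block, 1631 with crossed pairs, 361 with the member sum, 607 at the study's limits and 797 without DA-1. Hepatocyte-like TLH cells gave 483, and 1138 with no filter, 268 with the block, 960 with crossed pairs, 158 at 2000 UMIs, and 198, 138 and 205 without DA-2, LEW-1 or LEW-2. Nuclei gave 170, and 273 with DESeq2, 622 with no filter, 262 with the block, 298 with the member sum, 108 at 5%, and 362 and 348 without DA-2 or LEW-2. Hepatocyte-like nuclei gave 182, and 400 with no filter, 114 with the block and 111 without DA-1. Classes gave 3861 (endothelial-like), 2059 without the block and 9163 with the member sum, and 4729 (macrophage-like) and 8438 with the member sum.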
